A study of Homo sapiens with 20 samples.

Results

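The tissue lineage transcription factors described here were PAX8, PAX2, WT1, NKX2-1, CDX1, CDX2, HNF4A and GATA3, taken by symbol from a table of RNA levels in human tumor cell lines. All 8 were found among 21201 genes, 1 of them (NKX2-1) after a hyphen in its symbol was restored. The RNA came from 5 established lines, namely the colon lines COLO 320DM and RKO, the kidney line UO-31, the high grade serous ovarian line OVCAR-4 and the lung adenocarcinoma line ABC-1, each grown for 24 h with 1 µM of the tankyrase inhibitor G007-LK or with 0.01% DMSO. Each line gave 2 biological replicates per treatment, which makes 20 libraries of poly(A) RNA. COLO 320DM, UO-31, OVCAR-4 and ABC-1 are the TNKSi-sensitive lines of the study, where TNKSi stands for tankyrase inhibition, and RKO is its insensitive control. Each tissue other than colon stands on 1 line, and ABC-1 and RKO were grown in EMEM while the others were grown in RPMI-1640, so line, tissue of origin and medium cannot be told apart.

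Lineage transcription factors bind DNA at the enhancers and promoters of genes that give a tissue its identity, and most of them stay on in tumors of that tissue. Pathologists stain for them to find where a metastasis came from: PAX8 and PAX2 for kidney and Müllerian tumors, WT1 for serous ovarian tumors, NKX2-1 (also called TTF-1) for lung and thyroid, CDX2 and CDX1 for intestine, and GATA3 for urothelium and breast. HNF4A drives hepatocyte and gut epithelial programs. Tankyrases lead AXIN proteins to degradation and so sustain WNT/β-catenin signaling, which patterns the intestine together with CDX factors.

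Values are RPKM, the reads of a gene divided by its length and by the mapped reads of the library, so levels may be compared between genes. Because RPKM values are multiples of what 1 read is worth, the reads behind each factor could be recovered as whole numbers, and relative depth ran from 0.406 (an OVCAR-4 library) to 1 (a COLO 320DM library). A factor without a value was taken as 0, which allows up to 3 reads, or at most 0.142 RPKM for the factors and libraries here. Read counts cover counting error only. The treatment was tested in a line for all genes that averaged 1 RPKM or more over its 4 libraries, by limma fitted to log2(RPKM + 0.5), and the threshold was a Benjamini-Hochberg adjusted p under 0.05. With 2 libraries per group, limma pools the spread between replicates in part over all genes of the fit. A p-value is therefore not that of a gene's own libraries alone and depends on the filter and the scale.

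The factors lie on different chromosomes of GRCh37, except that PAX2 (chr10:102495153-102589701) and GATA3 (chr10:8087341-8117161) share chromosome 10. PAX8 is at chr2:113973574-114036498, WT1 at chr11:32409321-32457110, NKX2-1 at chr14:36985597-36990354, CDX1 at chr5:149546341-149564121, CDX2 at chr13:28535055-28543452 and HNF4A at chr20:42984339-43061485.

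With DMSO, each line had its own combination of factors. PAX8 was high in UO-31 and OVCAR-4, PAX2 was highest in UO-31, CDX2 was high in COLO 320DM and far lower in RKO, and NKX2-1 and GATA3 were highest in ABC-1. WT1, CDX1 and HNF4A stayed below 1 RPKM in all 20 libraries. Of the 8 factors, 5 reached a mean of 1 RPKM in at least 1 line and were compared between all 10 pairs of lines. Pairs in which both lines had at most 3 reads per library were left out. The filter keeps a gene by its highest line, which favors differences, and the pairs reuse the same 5 line means. In 43 of these 44 comparisons the levels differed past the threshold in limma, which is a common outcome among all genes: 80.4% passed between COLO 320DM and UO-31, 87.7% between COLO 320DM and OVCAR-4, 78.1% between COLO 320DM and ABC-1 and 74.9% between COLO 320DM and RKO. For UO-31 the shares were 86.2% against OVCAR-4, 79.3% against ABC-1 and 77.4% against RKO. OVCAR-4 differed from ABC-1 and from RKO in 86.9% of genes each, and ABC-1 from RKO in 76.5%. The comparison that did not pass was PAX8 in COLO 320DM and ABC-1 (log2 difference -0.12, SE 0.11, adjusted p = 0.324).

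**Figure D1:**
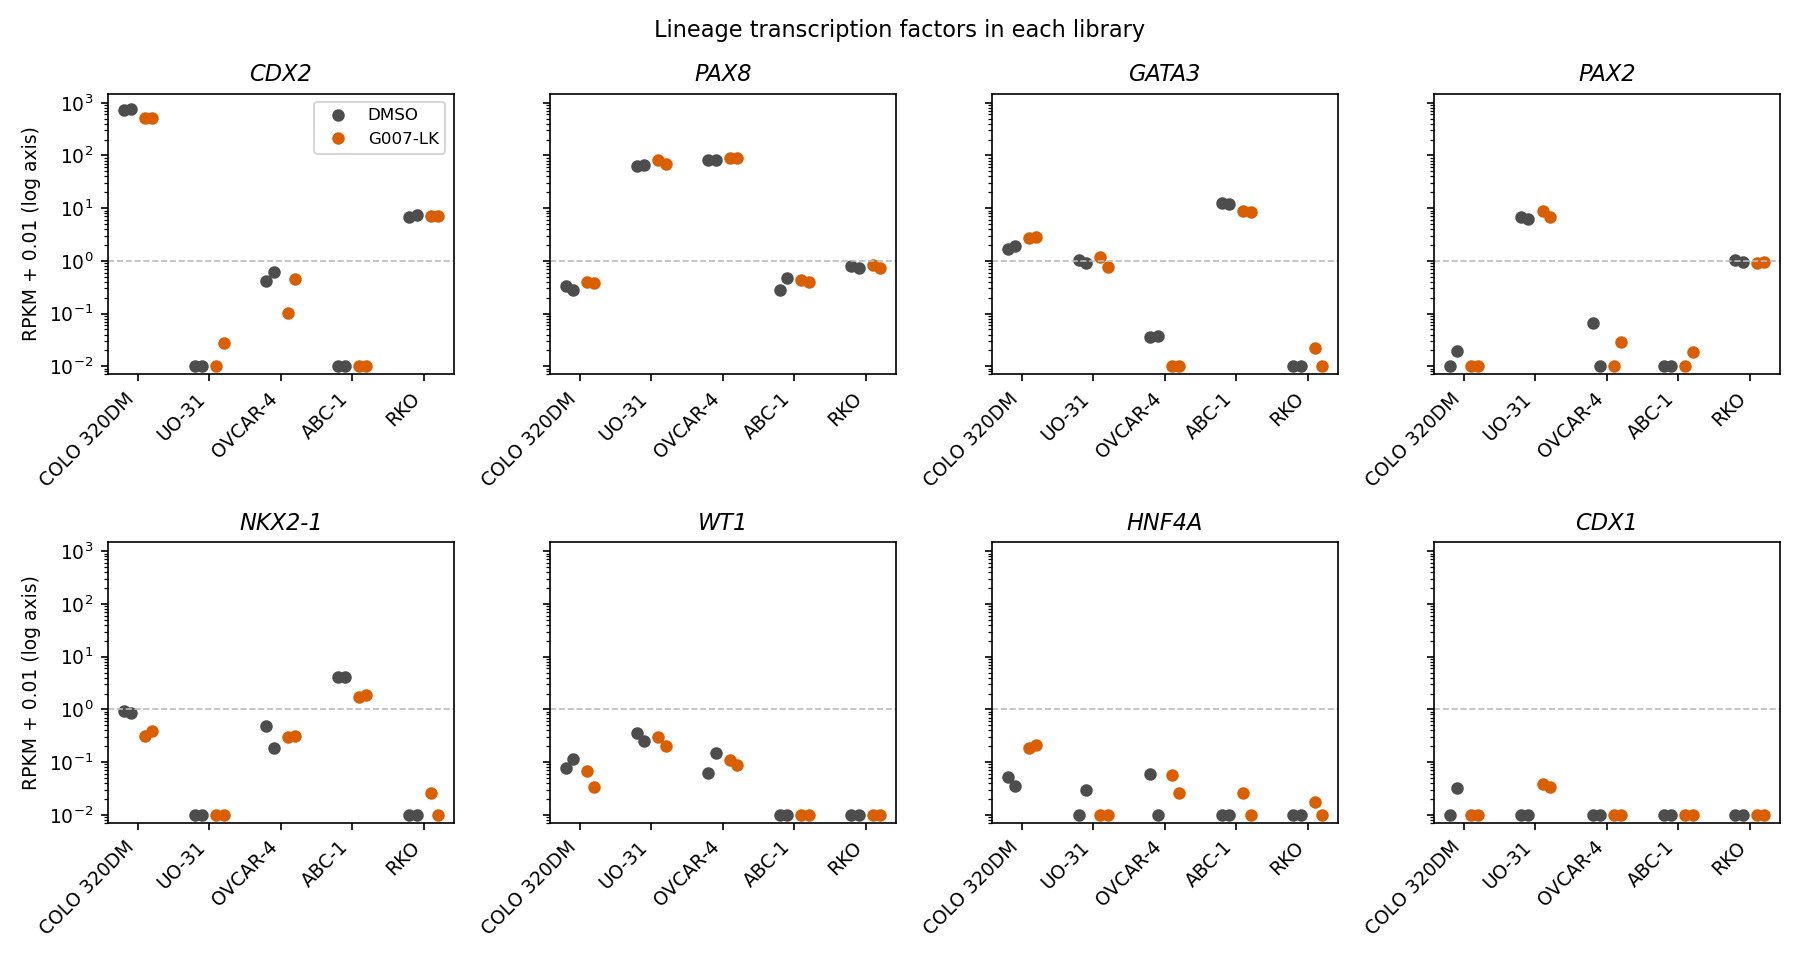
RPKM of the 8 factors in each of the 20 libraries, with 0.01 added so that a value of 0 can be drawn on the log axis; each point is 1 library, gray for DMSO and orange for G007-LK, and the dashed line is 1 RPKM. CDX2 in COLO 320DM lies between 516 and 763 RPKM, PAX8 is above 60 RPKM only in UO-31 and OVCAR-4, and WT1, HNF4A and CDX1 are under the line in every library.

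CDX2, the homeobox factor that specifies intestinal epithelium, was the most abundant of the factors in any line. With DMSO, COLO 320DM had 732 and 763 RPKM (50855 and 45363 reads), which placed CDX2 at rank 74 of the 18115 genes with a value. RKO, the other colon line, had 6.88 and 7.43 RPKM, so COLO 320DM was 104-fold higher (log2 difference 6.61, SE 0.10, adjusted p = 3.3e-13). OVCAR-4 had 0.403 and 0.603 RPKM from 12 and 17 reads, a low level that lay in both libraries above those of UO-31 and ABC-1. Neither of these had a read with DMSO, and 3 reads as the limit put COLO 320DM at least 12818-fold above UO-31 and at least 13787-fold above ABC-1. CDX1, a close relative of CDX2 in intestine, was not detectable at this depth: it had 1 read in COLO 320DM with DMSO and in both UO-31 libraries with G007-LK, and no value in the other 17 libraries.

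G007-LK lowered CDX2 in COLO 320DM. The treated libraries had 523 and 516 RPKM, both below both DMSO libraries, and the mean fell by 30.5% (log2 fold change -0.52, SE 0.06, adjusted p = 6.3e-06). In RKO the treated libraries had 7.08 and 7.14 RPKM and lay between the DMSO libraries (log2 fold change -0.01, SE 0.05, adjusted p = 0.956). The difference between the responses was itself past the threshold (COLO 320DM minus RKO -0.52, SE 0.08, adjusted p = 0.00269), as for 11% of all genes in this pair. In a fit over all 20 libraries it was not (adjusted p = 0.147). In OVCAR-4 with G007-LK, CDX2 had 3 and 13 reads (0.0946 and 0.435 RPKM), which overlapped the DMSO libraries. In bulk RNA, fewer cells with a factor and less of its RNA per cell cannot be told apart.

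The sequence before the start of CDX2 is shown because CDX2 is the factor with the highest level and was lowered by G007-LK, and that of GATA3 because it moved in opposite directions in COLO 320DM and ABC-1. RefSeq promoters (GRCh38.p14) were at hand for 7 of the 8 factors, all but CDX1, and the 250 bases before the start were located by exact match in GRCh37. That of CDX2 is chr13:28543453-28543702 on the minus strand, and that of GATA3 is chr10:8087046-8087295 on the plus strand. Capitals mark matches on either strand to 3 short motifs. The first is that of TCF/LEF factors, the DNA-binding partners of β-catenin, spelled CTTTGA, with T allowed as its last letter. The second is that of TEAD factors, the partners of YAP, spelled GGAATG. The last is that of GATA factors, spelled AGATAA, with T allowed as its first letter.
CDX2: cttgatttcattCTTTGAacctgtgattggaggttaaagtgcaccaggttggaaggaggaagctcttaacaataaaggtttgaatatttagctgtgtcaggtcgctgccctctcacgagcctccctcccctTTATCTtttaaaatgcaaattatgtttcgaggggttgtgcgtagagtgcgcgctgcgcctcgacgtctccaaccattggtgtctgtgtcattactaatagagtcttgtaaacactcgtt
GATA3: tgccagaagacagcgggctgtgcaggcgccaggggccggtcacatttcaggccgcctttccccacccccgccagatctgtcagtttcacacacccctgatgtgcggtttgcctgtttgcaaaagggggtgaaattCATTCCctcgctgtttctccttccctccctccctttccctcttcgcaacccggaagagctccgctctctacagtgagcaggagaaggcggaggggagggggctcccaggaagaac
The CDX2 window held 1 TCF/LEF match and 1 GATA match, and the GATA3 window held 1 TEAD match. Among 35114 promoters of this length, 22.8% held a TCF/LEF match, 11.9% a TEAD match and 14.6% a GATA match. The windows of PAX8, WT1 and NKX2-1 held none of these, that of PAX2 held 1 TCF/LEF and 1 TEAD match, and that of HNF4A held 1 GATA match. A match of 6 letters is a description of the window and not of binding.

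The other genes around CDX2 were looked at after its level had been seen. Within 1000 kb of its start site the table lists 18 other genes, here with negative distances toward lower coordinates. PDX1, the pancreatic and duodenal homeobox gene at -49 kb, had 9.47 RPKM in COLO 320DM, 1.45 in RKO and at most 0.0318 in the other lines. FLT3, which encodes a hematopoietic receptor kinase at 131 kb, was listed at 0 in COLO 320DM with DMSO. PAN3, a deadenylase subunit at 169 kb, had 7.96 RPKM there and 7.41 in RKO, and GTF3A, a transcription factor of 5S RNA at -545 kb, had 215 RPKM and was 1.51-fold above the next line. Of the 18, only PDX1 stood more than 2 log2 units above the mean of the other lines. With G007-LK, PDX1 had 9.04 RPKM in COLO 320DM. DNA copy number was not analysed here.

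**Figure D2:**
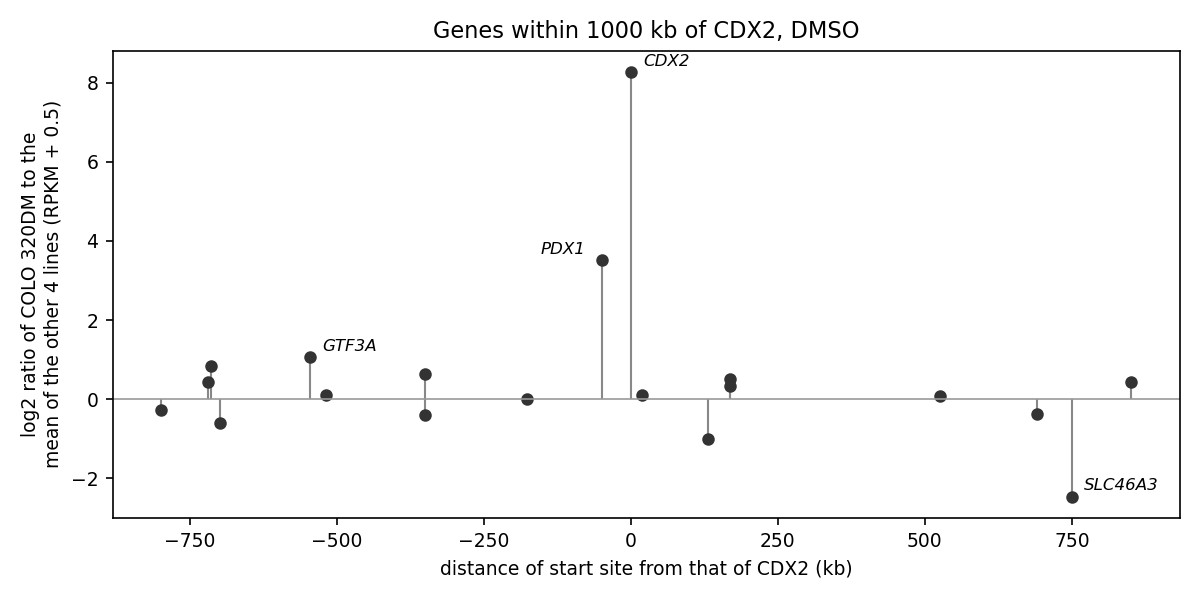
Genes within 1000 kb of CDX2 by the distance of their start sites in kb, with the log2 ratio of COLO 320DM to the mean of the other 4 lines with DMSO (0.5 added to both means). CDX2 stands at 8.27 and PDX1 at 3.51, while GTF3A reaches 1.07 and SLC46A3 lies at -2.46.

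PAX8, the paired-box factor of thyroid, kidney and Müllerian epithelium, was the second most abundant factor. With DMSO it had 63.9 and 66.1 RPKM in UO-31 and 81.2 and 81.3 in OVCAR-4. The 3 other lines lay between 0.265 and 0.783 RPKM, so that OVCAR-4 was 275-fold above COLO 320DM, 220-fold above ABC-1 and 108-fold above RKO. Which of UO-31 and OVCAR-4 was higher depended on the scale. As deposited, UO-31 was lower (log2 difference -0.32, SE 0.11, adjusted p = 0.0148), but the sum of RPKM was larger in OVCAR-4 than in the other lines and the median gene lay 0.70 log2 units lower in UO-31 than in OVCAR-4. With the libraries rescaled by the median ratio of genes, UO-31 was higher instead (0.51, adjusted p = 7.1e-04). The median ratio moved the median of all genes by over 0.1 in each pair with OVCAR-4, where the deposited medians lay 0.70 to 0.94 log2 units from 0, and of the 43 differences only this one changed direction.

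After 24 h with G007-LK, PAX8 in OVCAR-4 had 87.9 and 89.5 RPKM. Both treated libraries were above both DMSO libraries, a rise of 9.18% (log2 fold change 0.13, SE 0.04, adjusted p = 0.0183; 0.24 after rescaling). The call was lost without DMSO replicate 1 (adjusted p = 0.0884) or replicate 2 (0.0941), and the median gene of OVCAR-4 moved by -0.11. In UO-31 the treated libraries had 83.7 and 69.6 RPKM against 63.9 and 66.1. They did not overlap but differed from each other, and the change was not past the threshold (0.23, SE 0.14, adjusted p = 0.309), though it passed after rescaling (0.28, adjusted p = 0.0305). Over all genes, G007-LK replicate 2 of this line lay -0.29 log2 units (median) from replicate 1. The change in PAX8 depended on which treated library was kept: it was 0.36 without replicate 2 and 0.10 without replicate 1. The responses of the 2 lines did not differ past the threshold (UO-31 minus OVCAR-4 0.10, SE 0.13, adjusted p = 0.786, with 3.01% of all genes past it), and this does not show that they respond alike.

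PAX8-AS1, a noncoding gene on the opposite strand that overlaps PAX8 over 60585 bp, was low in the lines where PAX8 was high. With DMSO its replicates had 4.36 and 4.78 RPKM in COLO 320DM, 4.78 and 5.82 in ABC-1, while those of RKO had 3.63 and 3.50. In UO-31 they had 0.444 and 0.389 and in OVCAR-4 0.442 and 0.685, so these lines did not overlap the 3 others, while the order within each of the groups was not the reverse of that of PAX8. Whether the counting used strand is not stated, and reads of both genes cannot be told apart where they overlap. With G007-LK, PAX8-AS1 passed the threshold only in ABC-1 of the lines where it was tested (log2 fold change -0.30, SE 0.12, adjusted p = 0.0281; -0.16, adjusted p = 0.113, after rescaling). This call was lost without any 1 library other than DMSO replicate 1.

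**Figure D3:**
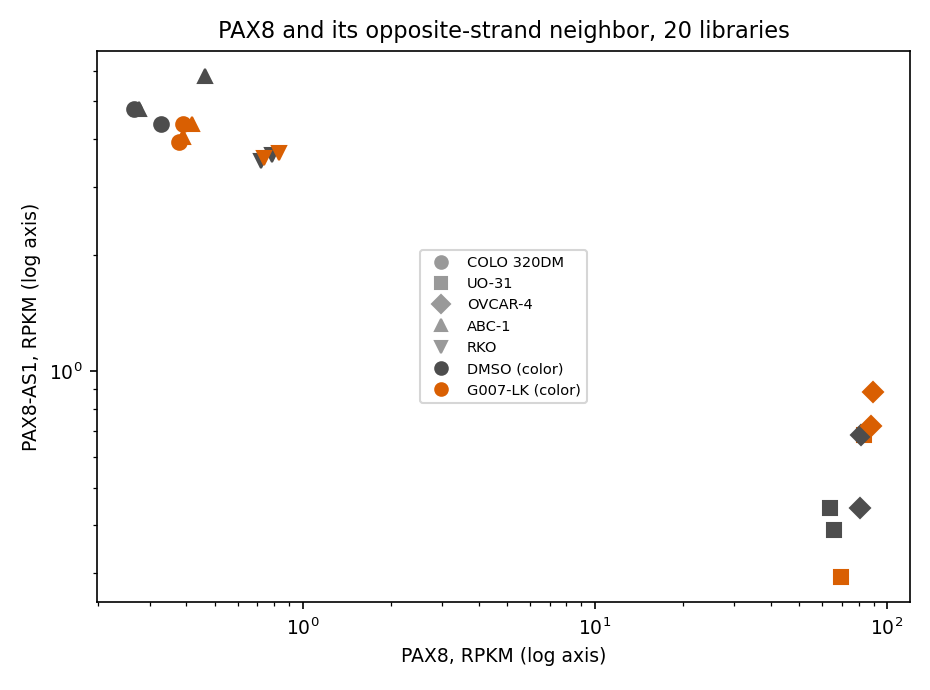
PAX8 against PAX8-AS1 in the 20 libraries, both in RPKM on log axes, with the line given by the marker and the treatment by the color. The 8 libraries of UO-31 and OVCAR-4 lie at the lower right, with PAX8 from 63.9 to 89.5 and PAX8-AS1 under 1 RPKM, and the 12 libraries of the other lines at the upper left.

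PAX2, which acts with PAX8 in the developing nephron, followed it in UO-31 but not in OVCAR-4. UO-31 had 6.67 and 6.36 RPKM with DMSO, 6.68-fold above RKO, whose libraries had 1.02 and 0.934 (log2 difference 2.25, SE 0.08, adjusted p = 2.7e-10). OVCAR-4 had 3 reads in 1 DMSO library and none in the other, COLO 320DM had 1 read, and ABC-1 had none, which put UO-31 at least 210-fold above ABC-1. With G007-LK, UO-31 had 8.84 and 6.75 RPKM, both above the DMSO libraries, without passing the threshold (log2 fold change 0.23, SE 0.22, adjusted p = 0.583). The change was 0.41 without G007-LK replicate 2 (adjusted p = 0.00123) and 0.05 without replicate 1 (adjusted p = 0.602). RKO with G007-LK had 0.909 and 0.935 RPKM and overlapped its DMSO libraries. RKO was thus the only line other than UO-31 with PAX2 near 1 RPKM.

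WT1, which serous ovarian tumors commonly keep, was near the limit of detection in OVCAR-4. Its libraries held 2 and 5 reads with DMSO and 4 and 3 with G007-LK, at most 0.138 RPKM. UO-31 had more, with 23 and 16 reads (0.349 and 0.24 RPKM) with DMSO and 17 and 14 with G007-LK, and the treatments overlapped. COLO 320DM had 6 and 8 reads with DMSO and 5 and 2 with G007-LK, and ABC-1 and RKO had none in 8 libraries.

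NKX2-1, the homeobox factor of lung and thyroid epithelium, was highest in ABC-1 at a moderate level. With DMSO ABC-1 had 4.15 and 4.06 RPKM, 4.58-fold above COLO 320DM and 12.6-fold above OVCAR-4. UO-31 and RKO had no reads with DMSO, which put ABC-1 at least 69.8-fold and at least 90-fold higher. With G007-LK the ABC-1 libraries had 1.71 and 1.88 RPKM (104 and 123 reads, against 244 and 223), both far below the DMSO libraries. NKX2-1 fell by 56.3%, the largest change of the factors tested (log2 fold change -1.01, SE 0.13, adjusted p = 6.0e-14). The median gene of ABC-1 moved by -0.14, and after median ratio rescaling the change was -0.88 (adjusted p = 2.6e-06). Without the filter on low values the limma adjusted p was 1.3e-04, so its size depends on the fit.

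NKX2-1 was also lower with G007-LK in COLO 320DM, where it lay under the filter of 1 RPKM. Its libraries had 0.942 and 0.847 RPKM (65 and 50 reads) with DMSO and 0.299 and 0.385 (20 and 26 reads) with G007-LK, without overlap. In the fit without the filter the change was -0.73 (SE 0.12, adjusted p = 0.0191). With any 1 library left out it lay between -0.80 and -0.65. Such fits leave 1 library in a group and cannot decide whether the call holds. In OVCAR-4, NKX2-1 had 0.473 and 0.179 RPKM with DMSO and 0.286 and 0.304 with G007-LK, which overlapped.

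GATA3, a zinc-finger factor of urothelium, breast and T cells, was higher in ABC-1 than in the other lines. ABC-1 had 12.3 and 11.8 RPKM with DMSO, 6.7-fold above COLO 320DM and 12.4-fold above UO-31. COLO 320DM had 1.65 and 1.93 RPKM and UO-31 had 1.05 and 0.892, and these differed as well (log2 difference 0.64, SE 0.09, adjusted p = 5.6e-05). OVCAR-4 had 1 read in each DMSO library and RKO none.

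GATA3 moved in opposite directions in the 2 lines where it passed the threshold. In ABC-1 it fell to 8.79 and 8.41 RPKM, below both DMSO libraries (log2 fold change -0.46, SE 0.11, adjusted p = 5.3e-05; -0.31 after rescaling). In COLO 320DM it rose to 2.72 and 2.77 RPKM, above both DMSO libraries (0.50, SE 0.15, adjusted p = 0.0211). The rise passed with all 4 libraries but not without G007-LK replicate 1 or 2 (adjusted p = 0.286 and 0.328), nor without the filter on low values (0.0654). The difference between the lines was past the threshold (COLO 320DM minus ABC-1 0.96, SE 0.15, adjusted p = 0.00113), as for 28.1% of all genes in this pair. In UO-31 the G007-LK libraries had 1.2 and 0.747 RPKM and spanned the DMSO libraries.

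HNF4A was near the limit of detection with DMSO in every line. In COLO 320DM, 6 and 3 reads with DMSO (0.0424 and 0.0248 RPKM) stood against 24 and 28 with G007-LK (0.175 and 0.202 RPKM), without overlap. In the fit without the filter the change was 0.37 on the log2(RPKM + 0.5) scale, which understates the change of so low a gene (SE 0.06, adjusted p = 0.0172). With any 1 library left out the change lay between 0.34 and 0.40, and fits with 1 library in a group cannot decide whether the call holds. Elsewhere HNF4A had at most 3 reads in a library.

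Over the factors, 8 combinations of factor and line passed the filter and 5 passed the test. In COLO 320DM this was 2 of 2, with 19.3% of all genes called, and in ABC-1 also 2 of 2, with 57.9% called. OVCAR-4 had 1 of 1 (51.5% of all genes). UO-31 had 0 of 2 (13.4%), and RKO had 0 of 1 (4.11%). After rescaling, the share of calls that were higher went from 24.4% to 51.1% in OVCAR-4 and from 28.8% to 49.2% in ABC-1. For COLO 320DM the shares were 39.9% before and 47.7% after, for UO-31 35.7% and 48.5%, and for RKO 33.1% and 61.1%. The share of all genes called became 38.6% in COLO 320DM, 30.1% in UO-31, 47% in OVCAR-4, 63.8% in ABC-1 and 2.71% in RKO. The directions of the 5 calls were the same on both scales.

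**Figure D4:**
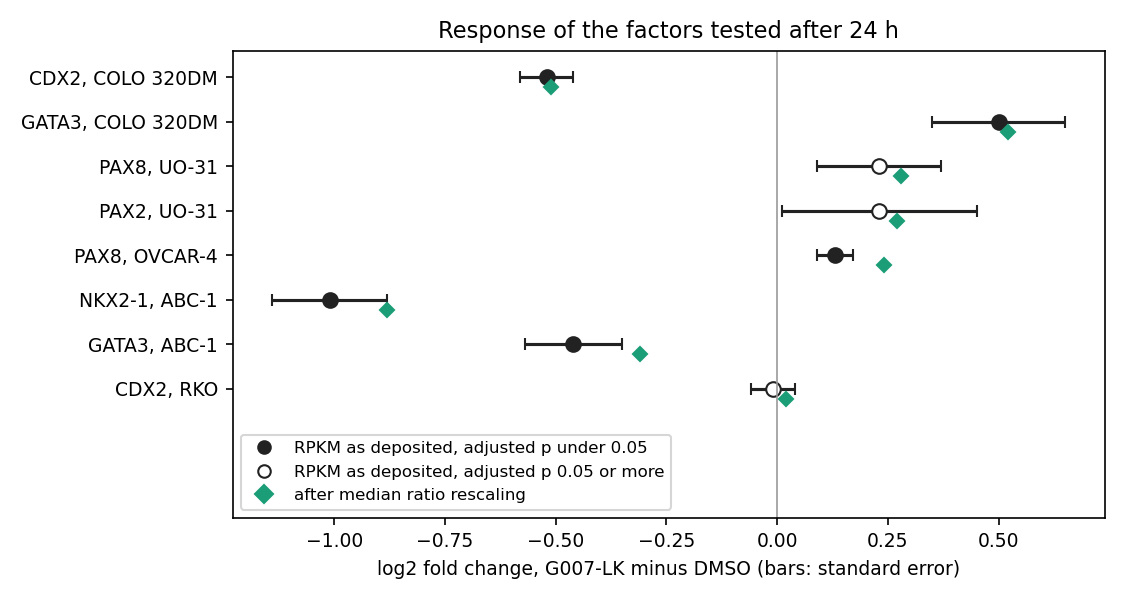
Log2 fold change (G007-LK minus DMSO) of the 8 combinations of factor and line that were tested, with standard errors as bars, 2 libraries per treatment. Filled circles passed an adjusted p under 0.05 and open circles did not, and diamonds give the value after median ratio rescaling. NKX2-1 in ABC-1 lies farthest to the left at -1.01, and GATA3 is at 0.50 in COLO 320DM and at -0.46 in ABC-1.

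Markers of the tissues, listed from general knowledge, were measured beside the factors. Of 16 intestinal markers, 5 reached 1 RPKM with DMSO in COLO 320DM and 2 in RKO. Among these in COLO 320DM were the adhesion protein CDH17 (4.31 RPKM), the keratin KRT20 (3.57) and the epithelial factor KLF5 (3.09), while the mucin MUC2 and the fatty acid binder FABP1 were listed at 0. RKO had CDH17 at 0.00484 RPKM. COLO 320DM thus had CDX2 at 747 RPKM beside a median intestinal marker at 0.117.

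In the lines with high PAX8, the kidney and Müllerian lists were measured in the same way. Of 14 kidney markers, 4 reached 1 RPKM in UO-31, among them the cadherin CDH6 (4.92 RPKM). The proximal tubule receptors LRP2 and CUBN were at most 0.0673 in UO-31. Of the same list, 6 of 14 reached 1 RPKM in OVCAR-4, with CDH6 at 98.9. The deposited scale, with its larger sum of RPKM in OVCAR-4, favors that line in counts at a fixed 1 RPKM. In OVCAR-4, 10 of 14 Müllerian and serous markers reached 1 RPKM. They were led by the secreted protein WFDC2 (HE4; 359 RPKM), the endodermal and Müllerian factor SOX17 (194), the protease KLK6 (65.7) and the oncogenic factor MECOM (54.3). The hormone receptors ESR1 and PGR had means of 0.197 and 0.0159 RPKM.

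In ABC-1 the lung markers were low. Of 12, 4 reached 1 RPKM, led by the pioneer factor FOXA1 (7.69), the surfactant lipid transporter ABCA3 (2.88), HOPX (2.23) and LAMP3 (1.42). SFTPC and SCGB1A1, which define alveolar type 2 and club cells, were listed at 0, SFTPB was at 0.0512 and NAPSA at 0.185. Of 14 genes that go with GATA3 in urothelium and breast, 7 reached 1 RPKM in ABC-1. These were led by the urothelial plaque protein UPK2 (306 RPKM), the secretory factor XBP1 (102), TFAP2C (43.6) and GRHL3 (25.1). UPK3A was listed at 0, and UPK1A (0.139), TP63 (0.131), TRPS1 (0.031), ESR1 (0.013) and KRT5 (0.00922) were low. In OVCAR-4, which had 1 GATA3 read per DMSO library, 8 of the 14 reached 1 RPKM on the deposited scale, which favors that line.

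**Figure D5:**
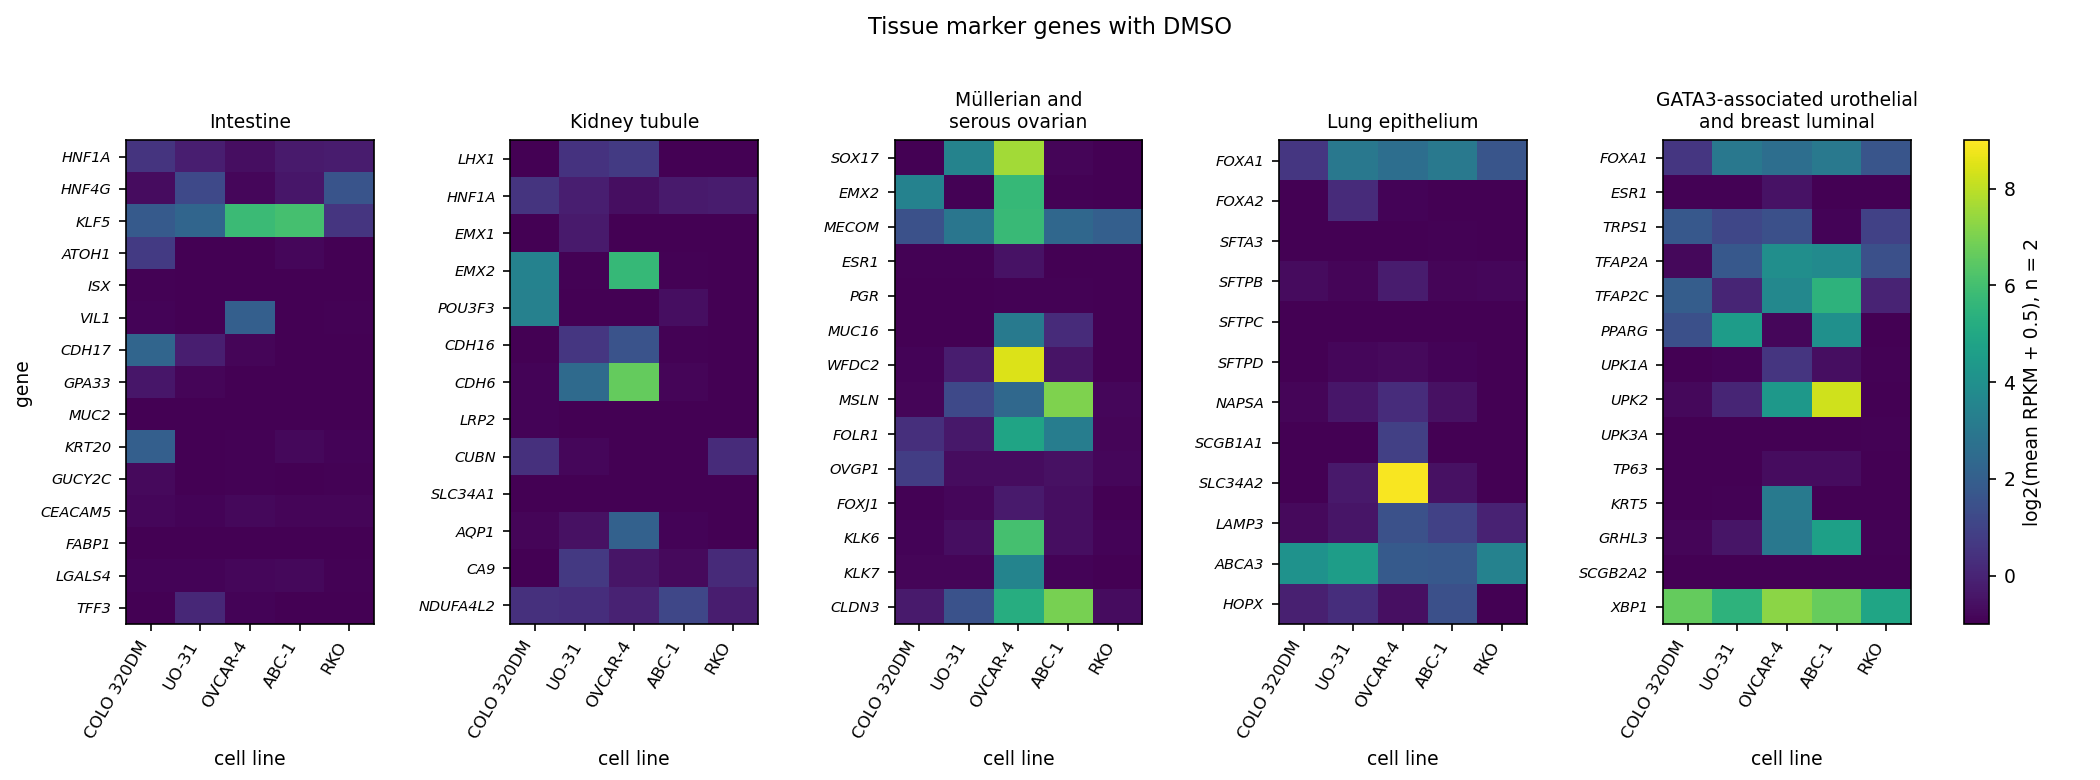
Mean level with DMSO (2 libraries per line) of tissue marker genes (some are not drawn), plotted as log2(RPKM + 0.5), with lines as columns and genes as rows in 5 lists. OVCAR-4 shows most Müllerian and serous markers, with WFDC2 at 359 RPKM, ABC-1 shows UPK2 at 306 RPKM beside low surfactant genes, and most intestinal markers are dark in COLO 320DM and RKO.

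With G007-LK, most Müllerian and serous genes tested in OVCAR-4 were higher. Of 10 genes tested, 7 rose and 1 fell, with a median of 0.23 against -0.11 over all genes. WFDC2 rose from 370 and 349 to 579 and 592 RPKM (log2 fold change 0.71), and KLK7 (0.81), the mucin MUC16, known as CA-125 (0.62), and the tight junction protein CLDN3 (0.42) rose as well. SOX17 fell from 195 and 193 to 154 and 163 RPKM (-0.29). Without any 1 library, 5 to 8 of the 10 rose and 1 or 2 fell. Of all genes in OVCAR-4, 12.6% were called higher and 39% lower, against 24.1% and 23% after rescaling, when 8 of the 10 rose and 1 fell.

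In UO-31, 2 of 4 kidney markers tested rose and none fell, with a list median of 0.84 against -0.04. Of all genes in UO-31, 4.79% were called higher and 8.63% lower (14.6% and 15.5% after rescaling). CDH16, the kidney-specific cadherin, went from 1.06 and 0.948 to 4.75 and 4.22 RPKM (1.73, SE 0.22, adjusted p = 6.2e-13), and CA9, a carbonic anhydrase induced by hypoxia, from 1.27 and 0.848 to 2.92 and 2.7 (1.10). Calls of this list were lost when a DMSO library was left out and gained when a treated library was, and those of all genes went the same way. CDH16 also rose in OVCAR-4, from 2.66 and 2.28 to 4.16 and 4.17 (0.65, adjusted p = 3.3e-04). The kidney list as a whole did not rise there. Of 5 tested, 2 were higher and 2 lower, CDH6 among the latter (-0.63). Its median was -0.12 against -0.11 over all genes, of which 12.6% were called higher and 39% lower. UO-31 and OVCAR-4 are also the lines with PAX8 above 60 RPKM, and in the 3 others CDH16 was at most 0.142 RPKM. A link between PAX8 and CDH16 was not tested, and it cannot be told apart from other differences between the lines.

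Of the hepatic genes that HNF4A controls in liver, 3 of 3 tested rose in UO-31, with 4.79% of all genes called higher. HNF4A itself had at most 2 reads in a library there. Only 1 of the 11 genes reached 1 RPKM with DMSO. AMBP (0.522 RPKM with DMSO, 1.92 with G007-LK) and F2 (0.932 and 1.97) passed the filter through their treated libraries. The filter thus favored genes that rose, and without it 2 of 10 were called higher and none lower. AMBP went from 0.667 and 0.378 to 2.12 and 1.73 RPKM (1.25), F2, which encodes prothrombin, by 0.78, and SERPINA1 by 0.67. Calls of this list were lost when a DMSO library of UO-31 was left out, where far fewer of all genes were called as well. In OVCAR-4, APOA1 (0.42) and SERPINA1 (0.40) rose, the 2 tested, with 12.6% of all genes called higher. In COLO 320DM, where HNF4A itself was higher with G007-LK, none of the 11 reached the filter.

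In ABC-1, where NKX2-1 and GATA3 fell, 2 of 4 lung markers and 5 of 7 GATA3-associated genes rose and none fell. FOXA1, which is on both lists, went from 7.36 and 8.01 to 13.8 and 12.7 RPKM (0.75), HOPX rose by 0.84 and TFAP2C by 0.92. UPK2 rose from 308 and 304 to 394 and 400 RPKM (0.38). The median of the GATA3-associated list was 0.34 and that of the lung list 0.42, against -0.14 over all genes. Without any 1 library, 3 to 5 of the GATA3-associated genes rose, and 1 fell without DMSO replicate 1. In ABC-1, 16.6% of all genes were called higher and 41.2% lower (31.4% and 32.4% after rescaling).

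In COLO 320DM, TFAP2C fell from 2.76 and 3.88 to 1.3 and 1.28 RPKM (-1.08, adjusted p = 1.2e-04), opposite to ABC-1, as GATA3 was. PPARG rose (0.48), a call lost without DMSO replicate 1, G007-LK replicate 1 or G007-LK replicate 2, and these were 1 higher and 1 lower of 4 tested. Of all genes in COLO 320DM, 7.7% were called higher and 11.6% lower (18.4% and 20.2% after rescaling). Of 5 intestinal markers tested, KRT20, a marker of mature colonocytes, rose (0.64, adjusted p = 0.00495) and the others did not pass. Of the kidney list, NDUFA4L2 was higher (0.78) and EMX2 lower (-0.57). NDUFA4L2 had 0.825 RPKM with DMSO and 1.78 with G007-LK and passed the filter through its treated libraries. The call of NDUFA4L2 was lost without G007-LK replicate 2. Without G007-LK replicate 1 or 2, no intestinal marker was called and EMX2 lost its call. In RKO none of the genes tested in these lists passed the threshold, with 4.11% of all genes called.

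Few relatives of the factors passed the filter. Of 18 paralogs with a row, GATA2, which shares its binding motif with GATA3, fell in ABC-1 from 5.15 and 4.38 to 3.29 and 3.31 RPKM (-0.47, adjusted p = 4.6e-04), and GATA6 fell in OVCAR-4 from 15.6 to 11.7 (-0.40, adjusted p = 1.8e-04). After rescaling, GATA2 in ABC-1 was at -0.33 and GATA6 in OVCAR-4 at -0.29. Such falls were common, as 41.2% of all genes were called lower in ABC-1 and 39% in OVCAR-4. None of the other paralogs passed in the lines where they were tested, 3 to 6 per line. RKO, which had no GATA3, had GATA4 at 6.26 RPKM and the cardiac factor NKX2-5 at 6.3. UO-31 had GATA6 at 19.6 and NKX2-4, the closest relative of NKX2-1, at 4.23 RPKM, while NKX2-1 had no reads there. HNF4G stood at 2.54 RPKM in RKO and 1.79 in UO-31, where HNF4A had at most 2 reads in a library.

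For each factor that reached 1 RPKM, the genes whose log2 levels lay nearest to its own over the 20 libraries were sought by the root mean square difference. For PAX8 these were LOXL1 (0.266 log2 units), ACTA2 (0.695) and BASP1 (0.698), for PAX2 KIAA1549L (0.354), LBX2 (0.361) and MMP1 (0.408), and for NKX2-1 they included PPP1R1C (0.393) and MYRIP (0.429). GATA3 was nearest to ELOVL4 (0.651), GNG4 (0.739) and SLC9A3 (0.751). No gene came as near to CDX2, for which the nearest were NRN1 (1.73), LEF1 (1.8), the β-catenin partner, and NKD2 (1.89). LEF1 had 58.8 RPKM in COLO 320DM and 9.81 in RKO and at most 0.748 in the other lines. These values describe 5 lines, and many genes differ between them.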

How the data were processed

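Poly(A) RNA of 5 cell lines, 24 h with G007-LK or DMSO, was sequenced on an Illumina HiSeq 2000. The authors aligned reads with SOAPaligner/SOAP2 to hg19 (up to 2 mismatches) and deposited RPKM values per gene and library. The sources used here do not give the aligner version, the gene set or the handling of strand. The deposited tables of differential genes hold the authors' own comparisons and were not used.

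Missing RPKM values were set to 0. The table has 21610 entries. The 8 that name no gene were dropped, and entries of the same symbol (371 symbols) were merged. The table spells hyphens in symbols as letters, and 778 symbols were restored against reference names. Sums of RPKM ran from 367196 to 909187. Reads of the factors were recovered from the spacing of low values (62 values under 100 reads, whole within 0.1).

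limma 3.58.1 (statmod 1.5.0, R 4.3.3, trend and robust) was run on log2(RPKM + 0.5) with Benjamini-Hochberg adjustment over all genes and 2-sided tests: treatment in each line, line pairs over 10 DMSO libraries (mean of at least 1 RPKM in at least 1 line), and the interaction over the 8 libraries of a pair (mean of at least 1 in both). No fold was taken where both lines had at most 3 reads per library. The fits were tested on simulated data. Python 3.11.15 with pandas 2.3.3 and matplotlib 3.10.9 was used.

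The factors and gene lists were chosen with earlier results of these data known. Named were all 8 factors, the up to 4 highest list members in the list's line, up to 4 called list members with the largest change per line, paralogs and antisense genes of at least 1 RPKM, and the 3 nearest genes. Some genes under this rule are not reported here. Neighbors of CDX2 and promoter motifs were added after the values were seen. Alternatives were a pseudocount of 0.1 or 1, a filter of 5 RPKM or none, median ratio and quantile normalization, 1 fit over 20 libraries, a replicate block, the G007-LK libraries for levels and leaving out each library. Equal sums of RPKM, a crossed block, fits of low factors and list counts under alternatives were added after seeing the data.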

Additional observations from a re-analysis of the deposited data

Results flagged for a closer look

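The response of GATA3 differed between COLO 320DM and ABC-1 by 0.96 log2 units (SE 0.15, adjusted p = 0.00113, limma interaction over 8 libraries). It was higher in both treated libraries of COLO 320DM and lower in both of ABC-1. The response of CDX2 differed between COLO 320DM and RKO by -0.52 (SE 0.08, adjusted p = 0.00269). It fell in COLO 320DM, where its level was 747 RPKM, and not past the threshold in RKO, where it was 7.15 RPKM. Both results were noticed for a tested difference between lines under the same treatment.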

How the results depend on the processing

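The number of factors called in COLO 320DM (2) was 1 at a mean of at least 5 RPKM and 1 with the replicate block, and 1 to 2 when a library was left out. In UO-31 (0) it was 1 with median ratio normalization (PAX8 0.28, adjusted p = 0.0305), where 30.1% of all genes were called. When a library of UO-31 was left out, the count of all genes called moved widely, and that of the factors is not read as a result about them. In OVCAR-4 (1) it was 0 in the fit over all 20 libraries (PAX8, adjusted p = 0.397) and 0 to 1 without a library, and in ABC-1 (2) it was 1 at a mean of at least 5 RPKM, where NKX2-1 is no longer tested. Differences in response (2) were 1 at a mean of at least 5, 1 in the fit over 20 libraries and 2 to 4 without a library, the 4 without UO-31 G007-LK replicate 2. The 43 differences between lines were within 1.5 times of that under each alternative run. Directions turned for PAX8 in UO-31 minus OVCAR-4 (0.51 with median ratio, 0.57 with quantile normalization and 0.51 with equal sums of RPKM), and for values near 0 that were not called: CDX2 in RKO (0.02 with median ratio, -0.06 to 0.04 without a library), PAX8 in COLO 320DM minus ABC-1 (-0.28, adjusted p = 0.0306, to 0.04 without a library) and the PAX8 response in UO-31 minus OVCAR-4 (-0.03 without UO-31 G007-LK replicate 1; 0.24, adjusted p = 0.00692, without replicate 2). The causes were not tested. GATA3 in COLO 320DM also lost its call without the filter (adjusted p = 0.0654).

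Replicate numbers carry no stated pairing, and same-numbered libraries did not deviate together (correlations from -0.25 to 0.06). With the replicate block GATA3 in COLO 320DM stayed at 0.50 with an adjusted p = 0.148. No other call of a factor changed with the block. With the numbers crossed in COLO 320DM and ABC-1, 2 factors were called in each. Of 1002 values under alternatives, 974 kept their direction and side of the threshold or, for counts, stayed within 1.5 times. WT1, CDX1 and HNF4A rest on few reads, so a change in them was mostly not detectable at this depth.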

Other observations

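KLF5, a zinc-finger factor of gut and other epithelia, was not high in the colon lines: with DMSO it had 3.09 RPKM in COLO 320DM and 0.972 in RKO, against 65 in ABC-1 and 55.2 in OVCAR-4. With G007-LK it rose in ABC-1 from 61.9 and 68.1 to 101 and 88.8 RPKM (log2 fold change 0.54, limma adjusted p = 9.3e-14). It fell in OVCAR-4 from 55.2 in both libraries to 44.1 and 41.9 (-0.36, adjusted p = 4.9e-05; -0.25 after median ratio rescaling), where 39% of all genes were called lower. In UO-31 it fell from 4.62 and 4.1 to 3.04 and 1.71 (-0.80, adjusted p = 0.00425; -0.76 after rescaling), where 8.63% were. The call in UO-31 was lost without DMSO replicate 1, without DMSO replicate 2 and without the filter on low values. The difference between these lines was not tested.

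Müllerian and serous markers were also present in ABC-1, a lung line, where the mesothelial surface protein MSLN had 134 RPKM and CLDN3 had 124. Of 5 tested there, 3 rose and none fell: MUC16 (1.19), CLDN3 (0.76) and MSLN (0.38). MUC16 had 0.684 RPKM with DMSO and 2.2 with G007-LK and passed the filter through its treated libraries, which favors a rise. Without the filter, 3 of 14 rose and 1 fell. Of all genes in ABC-1, 16.6% were called higher (31.4% after median ratio rescaling, when 4 of the 5 rose). OVCAR-4 had SLC34A2, a phosphate transporter of lung and ovary, at 481 RPKM, and it fell with G007-LK (-0.27, adjusted p = 3.9e-05; -0.16 after rescaling). Of all genes in OVCAR-4, 39% were called lower and 12.6% higher. The basal keratin KRT5 rose in OVCAR-4 from 8.19 to 15.9 RPKM (0.91, adjusted p = 4.8e-07; 1.02 after rescaling). The cadherin CDH6 fell from 98.9 to 63.6 (-0.63, adjusted p = 2.2e-07; -0.52 after rescaling).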
